A study of Mus musculus with 9 samples.

Results

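The genes described here encode the proteins of central myelin and the enzymes, regulators and membrane proteins of the mature oligodendrocyte, the cell that makes it. They were taken by symbol from the deposited table, and a symbol was kept when its mean over the 9 libraries reached 10 normalized counts. Of 33 symbols, all 33 were in the table and 32 were kept, among 17036 genes that passed the same filter of 57180 in the table. Ninj2 was left out with a mean of 7.98 normalized counts, and Hapln2, the member nearest to the limit, was kept with 11.0.

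RNA was sequenced from whole hippocampus of 11-day-old C57BL6 mice. In 4 animals (cKO, 3 males and 1 female) Slc38a3, the gene of the glutamine transporter SNAT3, was knocked out in endothelial cells, and 5 animals were wild type (WT, 1 male and 4 females). Slc38a3 itself was at 380, 405, 308 and 310 normalized counts in cKO replicates 1 to 4, against 3392, 2033, 3514, 3363 and 1804 in WT replicates 1 to 5, with no overlap (log2 fold change -2.99, limma adjusted p = 5.54e-05). The sources used here do not give the promoter that drives the deletion, the alleles of the WT animals or the litters. A normalized count is a gene's count scaled by its library's size factor, and the values rest on 30803135 to 34034530 reads per library. They compare libraries, not genes of different length.

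Oligodendrocytes arise from dividing precursors, pass through a short newly formed stage and then wrap axons in many layers of membrane. The wrapping needs adhesion proteins that hold the sheath to the axon, proteins that press the layers together, and a large supply of galactolipids and cholesterol. In the mouse forebrain the sheaths appear after birth, so the hippocampus of a young pup is still early in this course.

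Opalin, Mog, Mobp and Mag had the lowest estimates of all members in males against females, as described below. The 250 bases before their start sites are shown because the myelin regulators Myrf and Sox10 act on genes of this class, and capitals mark letters matching a MYRF-type motif (CTGGNAC) or a SOX-type motif (ACAAAG) on either strand. The sequences are RefSeq's on GRCm38.p6, written 5′ to 3′ on the strand of the gene, for Opalin chr19:41077114-41077363 (minus strand), for Mog chr17:37023399-37023648 (minus strand), for Mobp chr9:120149492-120149741 (plus strand) and for Mag chr7:30914864-30915113 (minus strand, the first of its 3 windows).
Opalin: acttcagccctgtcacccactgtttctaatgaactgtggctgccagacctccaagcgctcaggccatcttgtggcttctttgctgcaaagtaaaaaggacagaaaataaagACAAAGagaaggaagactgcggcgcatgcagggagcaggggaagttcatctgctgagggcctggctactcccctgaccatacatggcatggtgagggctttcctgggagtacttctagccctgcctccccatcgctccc
Mog: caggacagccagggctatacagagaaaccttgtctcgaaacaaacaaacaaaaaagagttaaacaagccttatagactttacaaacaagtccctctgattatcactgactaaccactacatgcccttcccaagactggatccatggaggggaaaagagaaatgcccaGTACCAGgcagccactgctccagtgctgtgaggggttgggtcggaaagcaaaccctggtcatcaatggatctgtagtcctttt
Mobp: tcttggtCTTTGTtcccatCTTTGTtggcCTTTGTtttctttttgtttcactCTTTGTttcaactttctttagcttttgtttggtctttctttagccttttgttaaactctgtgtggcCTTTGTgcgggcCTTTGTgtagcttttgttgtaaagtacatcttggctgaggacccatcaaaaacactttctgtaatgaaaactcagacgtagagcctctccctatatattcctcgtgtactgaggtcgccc
Mag: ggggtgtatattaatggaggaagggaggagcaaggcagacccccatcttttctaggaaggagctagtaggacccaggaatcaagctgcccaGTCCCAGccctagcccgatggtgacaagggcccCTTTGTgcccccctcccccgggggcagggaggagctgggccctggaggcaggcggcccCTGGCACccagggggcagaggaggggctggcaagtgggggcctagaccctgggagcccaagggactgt
The Mobp window held the SOX-type letters 6 times, the first 243 and the last 120 bases before the start, and no MYRF-type letters. The Mag window held the MYRF-type letters 159 and 68 bases before the start and the SOX-type letters at 126. The Mog window held the MYRF-type letters once, at 83, and the Opalin window the SOX-type letters once, at 139. Of the 32 members, 26 had a window in the table, and in 8 of these at least 1 window held the MYRF-type letters, against 17.9% of 27025 genes. The SOX-type letters were also in 8 of the 26, against 18.6% of genes. The matches are letters only, and the data here do not measure binding.

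Seen over the libraries, the members fell into a high and a low state that cut across genotype. The mean log2(normalized count + 1) over the 32 members was 7.97, 8.41, 7.98 and 8.35 in cKO replicates 1 to 4, against 7.95, 8.35, 8.29, 8.32 and 8.29 in WT replicates 1 to 5. cKO replicates 1 and 3 and WT replicate 1 were thus low, and the other 6 libraries lay close together. In cKO replicate 1, 28 of 32 members lay below their own mean over the 9 libraries, in cKO replicate 3 28 and in WT replicate 1 29. In cKO replicate 2, 30 members lay above it. These 3 low libraries are all male, and the fourth male, cKO replicate 4, stood with the females.

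The split was complete for 17 members, in which all 3 low libraries lay below all 6 others: Mbp, Mog, Mag, Cnp, Mobp, Cldn11, Opalin, Ermn, Ugt8a, Myrf, Fa2h, Tspan2, Enpp6, Bcas1, Sirt2, Mal and Tmem88b. Over all genes tested, 443 had that order (2.60%). In Myrf the gap was small, with 615 normalized counts in cKO replicate 1 against 618 in WT replicate 4. Since the 3 libraries were picked out by the members' own mean, the member count is a description and not a test. The first principal component of the members' log2 values held 64.5% of their variance between libraries. Their median SD over the 9 libraries was 0.22 on the log2 scale, against 0.11 over all genes tested.

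**Figure D1:**
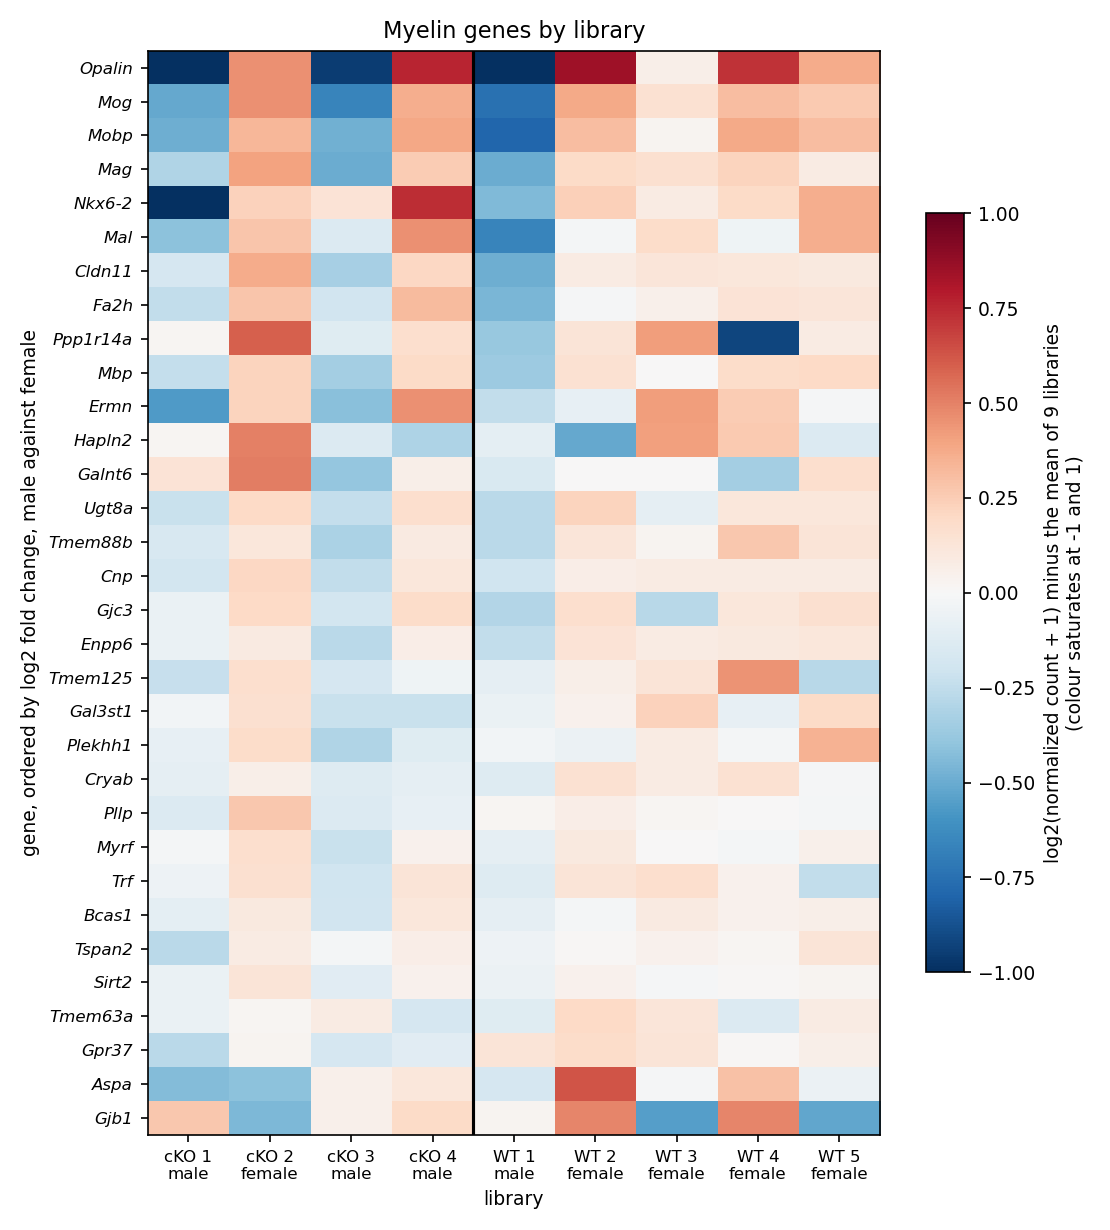
Each row is one of the 32 myelin genes and each column a library (4 cKO, then 5 WT, with sex), and colour gives log2(normalized count + 1) minus the gene's mean over the 9 libraries. cKO replicates 1 and 3 and WT replicate 1 form mostly blue columns, deep in all 3 for Opalin, Mog and Mobp. The lowest single value is that of Nkx6-2 in cKO replicate 1, at -1.56. Gjb1, Aspa and Gpr37 at the bottom do not follow these columns.

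Among the proteins of compact myelin, Mbp encodes the basic protein that binds the inner faces of the membrane together. Mbp was at 9864, 13526, 9144 and 13221 normalized counts in cKO replicates 1 to 4, and at 9056, 12915, 11637, 13134 and 13319 in WT replicates 1 to 5. Its 3 low libraries were those named above, and the genotypes overlapped fully. Mobp (chromosome 9, 119978772 to 120010550, GRCm39), a second basic protein of the compact layers, was at 1175, 2068, 1177 and 2154 normalized counts in cKO and at 954, 2047, 1680, 2141 and 2047 in WT. The highest Mobp library exceeded the lowest 2.26-fold. Mal, a proteolipid of membrane transport, was at 128, 208, 155 and 235 normalized counts in cKO and at 108, 168, 194, 167 and 220 in WT. Pllp, the tetraspan protein plasmolipin, varied less, from 717 to 955 normalized counts in cKO and from 780 to 829 in WT, with its highest value in cKO replicate 2. Cldn11 (chromosome 3, 31204068 to 31218473), the claudin that seals the layers of the sheath, was at 819, 1195, 734 and 1069 normalized counts in cKO and at 657, 979, 1003, 996 and 991 in WT. The 4 WT females thus lay within a narrow band for Cldn11, with WT replicate 1 well below it.

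Genes of the sheath's surface and cytoskeleton followed, with ranges from narrow to wide. Mog (chromosome 17, 37321634 to 37334290), which lies on the outermost surface and appears late, was at 97.5, 192, 88.0 and 179 normalized counts in cKO and at 82.8, 182, 155, 173 and 168 in WT. Opalin (chromosome 19, 41050148 to 41065552), a membrane glycoprotein of the oligodendrocyte, was at 7.95, 27.4, 9.68 and 34.0 normalized counts in cKO and at 8.98, 36.4, 20.5, 33.1 and 25.8 in WT. The low state of Opalin thus rests on about 10 counts in each of 3 libraries, and its counting error is large. Mag (chromosome 7, 30598600 to 30614298), the adhesion protein that faces the axon, was at 926, 1507, 804 and 1352 normalized counts in cKO and at 804, 1300, 1271, 1323 and 1201 in WT. Cnp, an enzyme of the uncompacted channels of the sheath that is made before it compacts, was at 3558, 4655, 3386 and 4345 normalized counts in cKO and at 3501, 4228, 4248, 4261 and 4244 in WT. Both genes kept the same 3 libraries lowest, over a wider range in Mag (1.88-fold) than in Cnp (1.37-fold). Ermn, a cytoskeletal protein of mature oligodendrocytes, was at 47.7, 83.2, 53.2 and 99.0 normalized counts in cKO and at 59.8, 67.5, 95.8, 85.3 and 71.0 in WT. Sirt2, a tubulin deacetylase enriched in myelin that neurons also express, was at 4683, 5390, 4563 and 5036 normalized counts in cKO and at 4703, 5053, 4882, 4949 and 5008 in WT. The range of Sirt2 was narrow, 1.18-fold, yet in the same order. Hapln2, a link protein of the node of Ranvier, was near the limit of detection at 8.49 to 15.7 normalized counts in cKO and 7.27 to 14.7 in WT, and did not follow the 3 libraries. Plekhh1 was at 146 to 204 in cKO and 172 to 229 in WT.

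**Figure D2:**
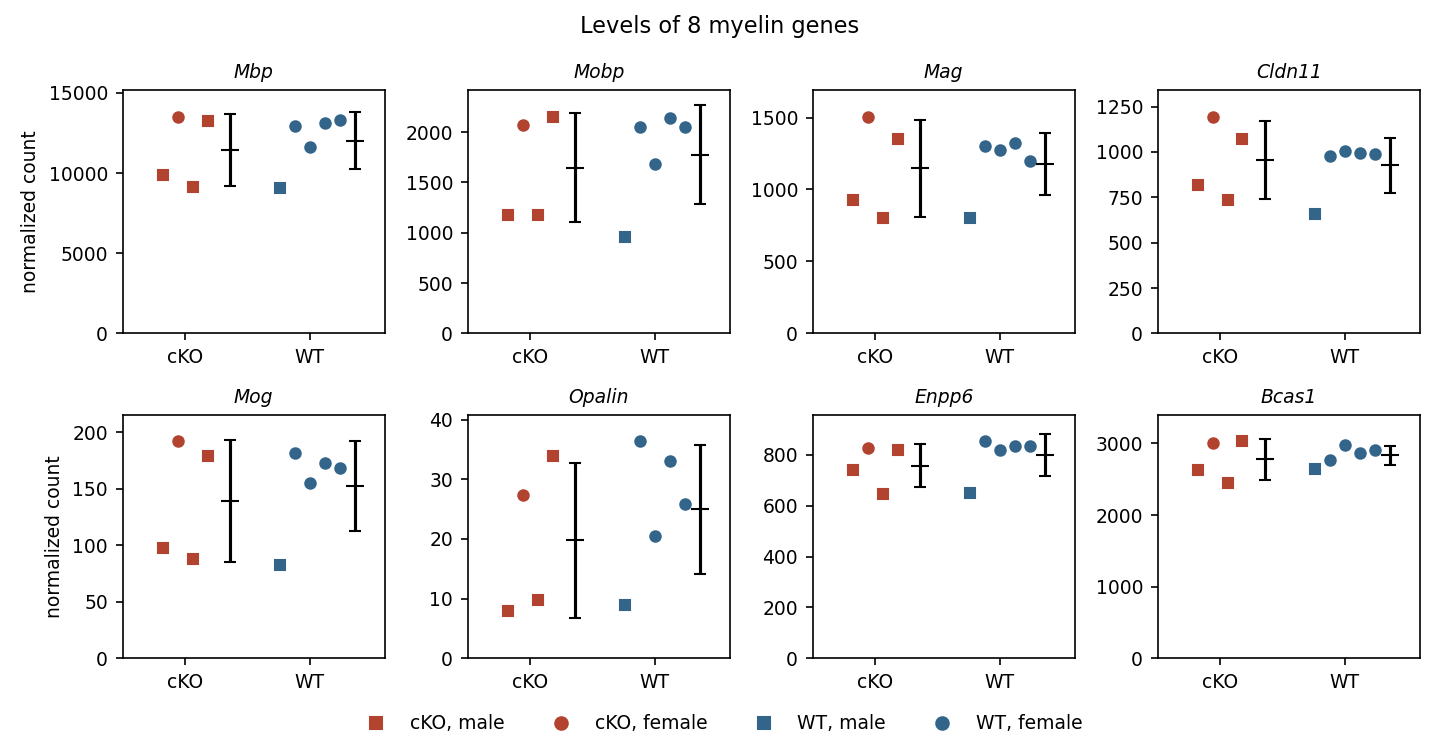
Normalized counts of 8 myelin genes in each cKO and WT library (squares male, circles female), with the group mean and SD as a bar beside the points (n = 4 and 5). In all 8 genes the lowest 3 points are 2 cKO males and the WT male, and the mean of cKO lies within 1 SD of the mean of WT.

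The members include a pair of transcription factors. Myrf, the factor that switches on and maintains the myelin genes, was at 615, 703, 534 and 643 normalized counts in cKO and at 584, 668, 624, 618 and 644 in WT. Nkx6-2, a homeodomain factor of the lineage, was at 4.97, 19.6, 18.4 and 28.3 in cKO and at 12.0, 19.7, 17.6, 19.1 and 21.5 in WT. In Nkx6-2, cKO replicate 1 and WT replicate 1 were the lowest and cKO replicate 3 was not low.

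Among the enzymes, Ugt8a and Fa2h had the same 3 lowest libraries as the structural genes above, and Gal3st1, Aspa and Galnt6 did not. Ugt8a makes galactosylceramide, and was at 736, 986, 726 and 962 normalized counts in cKO and at 710, 994, 806, 926 and 922 in WT. Fa2h hydroxylates the fatty acids of that lipid, and was at 189, 273, 197 and 282 in cKO and at 164, 224, 233, 248 and 244 in WT. Gal3st1 adds the sulfate of sulfatide, and was at 240, 274, 211 and 210 in cKO and at 234, 252, 288, 232 and 281 in WT. In Gal3st1 cKO replicates 3 and 4 were the lowest, so this step did not share the pattern in full. Aspa, which splits N-acetylaspartate, was at 28.8, 29.4, 40.6 and 42.4 normalized counts in cKO and at 34.9, 61.3, 39.1, 48.2 and 37.6 in WT, and followed neither sex nor the 3 libraries. Galnt6, which starts O-linked sugar chains, was at 36.8, 48.0, 25.2 and 34.9 in cKO and at 29.9, 33.2, 33.2, 26.1 and 37.6 in WT, with cKO replicate 2 highest and cKO replicate 3 lowest.

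The connexins differed from each other. Gjc3 was at 414, 498, 384 and 491 normalized counts in cKO and at 355, 487, 357, 467 and 486 in WT, with WT replicates 1 and 3 as low as each other. Gjb1, which is X-linked, was at 24.9, 14.7, 21.3 and 23.6 in cKO and at 20.9, 29.1, 13.7, 29.1 and 14.0 in WT. It was the single member with a higher estimate in males. Of the remaining genes, Trf encodes the iron carrier transferrin, which choroid plexus also makes, and was at 599, 694, 542 and 680 normalized counts in cKO and at 566, 680, 699, 639 and 524 in WT. Gpr37, a receptor that astrocytes and neurons also express, was at 1273, 1566, 1356 and 1419 in cKO and at 1676, 1730, 1669, 1545 and 1600 in WT, so that cKO replicates 1, 3 and 4 lay below every WT library and only cKO replicate 2 overlapped. Ppp1r14a, an inhibitor of myosin phosphatase, was at 27.8, 42.1, 25.2 and 31.1 in cKO and at 20.9, 30.1, 37.2, 14.1 and 29.0 in WT. The small heat shock gene Cryab was at 387 to 443 in cKO and 389 to 473 in WT, the stretch-gated channel gene Tmem63a at 153 to 182 and 156 to 197, Tmem88b at 165 to 223 and 172 to 249, and Tmem125 at 27.8 to 37.2 and 26.9 to 45.2.

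How far each library had come along early myelination was described with members that oligodendrocytes switch on at different times. The early members were Enpp6, a choline phosphodiesterase of newly forming oligodendrocytes, Bcas1, a marker of cells starting to myelinate, the tetraspanin gene Tspan2, and Myrf. The 8 late members were Mog, Mobp, Opalin, Aspa, Hapln2, Mal, Trf and Ppp1r14a. Enpp6 was at 740, 829, 645 and 818 normalized counts in cKO and at 651, 854, 821, 834 and 837 in WT. Bcas1 was at 2623, 3002, 2452 and 3030 in cKO and at 2636, 2773, 2979, 2873 and 2914 in WT, and Tspan2 at 2070, 2638, 2454 and 2611 in cKO and at 2402, 2519, 2562, 2531 and 2728 in WT. All 4 early members had the same 3 lowest libraries, though Myrf was close to a tie (615 in cKO replicate 1, 618 in WT replicate 4). Of the 8 late members, Mog, Mobp, Opalin and Mal had them too, and Aspa, Hapln2, Trf and Ppp1r14a did not, so the low mean of the late members rests on the first 4.

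The mean log2 value of the early members minus that of the late members was 4.10, 3.64, 3.98 and 3.65 in cKO replicates 1 to 4, against 4.21, 3.65, 3.70, 3.74 and 3.80 in WT replicates 1 to 5. A larger difference means that late genes were lower relative to early ones. It was largest in WT replicate 1, then in cKO replicates 1 and 3, and smallest in cKO replicate 2. It averaged 3.84 ± 0.234 in cKO, against 3.82 ± 0.224 in WT (SD, n = 4 and 5), a difference of 0.02 that became -0.19 with sex as a term, and no test was made of it. The difference of 0.02 was smaller than the SD within either group. Those SDs also hold the spread between the sexes, so they are no measure for the -0.19. Early minus late was 3.98 ± 0.244 in males (SD, n = 4) and 3.71 ± 0.063 in females (SD, n = 5), and cKO replicate 4, at 3.65, lay among the females. Among females alone the single cKO library lay 0.08 below the WT mean, and among males the mean of the 3 cKO libraries lay 0.30 below the single WT library.

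**Figure D3:**
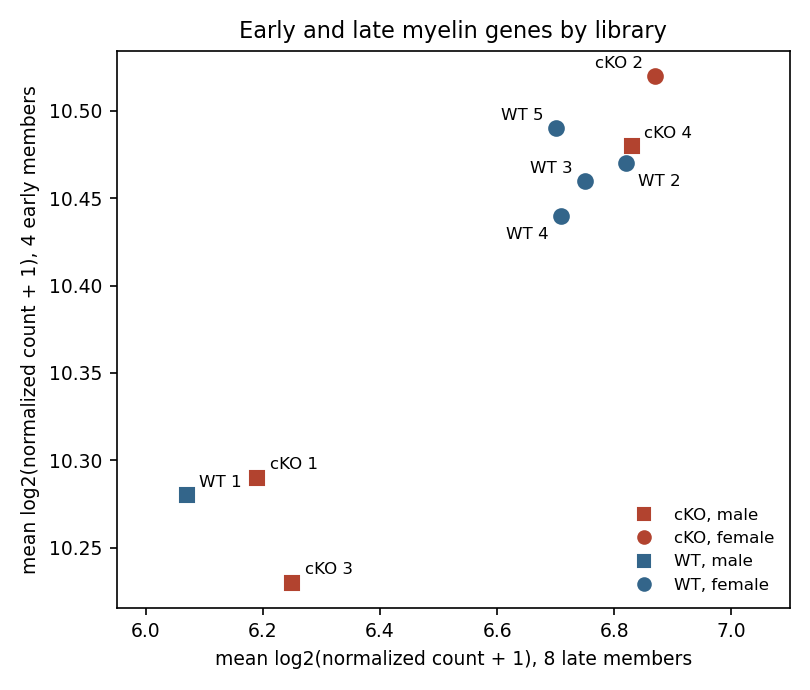
Each point is a library (colour genotype, shape sex), with the mean log2(normalized count + 1) of the 8 late members on the horizontal axis and that of the 4 early members on the vertical axis. cKO replicates 1 and 3 and WT replicate 1 stand at the lower left, between 6.07 and 6.25 for late members, and the other 6 libraries between 6.70 and 6.87.

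The main comparison asked whether the endothelial knockout changed these genes. No member passed, 0 of 32 higher and 0 lower in cKO against WT (limma-trend with sex and genotype as terms, Benjamini-Hochberg adjusted p under 0.05 over 17036 genes), where 0.346% of all genes tested passed. An unadjusted p under 0.05 was found for 3 members (11.3% of all genes), Cldn11 and Fa2h with a higher estimate (4.94%) and Gpr37 with a lower one (6.40%), while edgeR and DESeq2 on the recovered reads also passed 0 members. The libraries of the genotypes were apart in 0 members, against 6.29% of all genes. Members had a median log2 fold change of 0.10, against -0.0034 over all genes tested, and 26 of 32 were above 0 (48.8% of all genes). Without the sex term 0 members passed (1.27% of all genes) and the median was -0.06, with 9 above 0 (49.4% of all genes), so the direction depended on that term.

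Cldn11 averaged 954 ± 214 normalized counts in cKO, against 925 ± 150 in WT (SD, n = 4 and 5), with a log2 fold change of 0.33 ± 0.101 (SE, limma adjusted p = 0.240). Fa2h averaged 235 ± 49.0 in cKO and 223 ± 34.3 in WT, with 0.31 ± 0.134 (limma adjusted p = 0.411). Without the sex term the log2 fold change was 0.03 for Cldn11 and 0.07 for Fa2h, and without WT replicate 1 that of Fa2h was 0.20. For Gpr37 the averages were 1403 ± 124 in cKO and 1644 ± 72.1 in WT, with -0.18 ± 0.0653 (limma adjusted p = 0.309), and the log2 fold change was -0.06 without WT replicate 1 and -0.31 without cKO replicate 2. The largest positive estimates were those of Ppp1r14a at 0.54 ± 0.307, Mal at 0.39 ± 0.192 and Galnt6 at 0.33 ± 0.232, and the lowest, with Gpr37, were those of Aspa at -0.28 ± 0.25 and Gjb1 at -0.15 ± 0.333. Single libraries moved these estimates. Without cKO replicate 2 the log2 fold change was 0.09 for Galnt6, 0.63 for Mal, 0.07 for Aspa and 0.14 for Gjb1. Without WT replicate 1 it was 0.56 for Galnt6, 0.16 for Mal, -0.62 for Aspa and -0.43 for Gjb1. For the main structural genes the log2 fold change was 0.16 ± 0.101 for Mbp (limma adjusted p = 0.593) and 0.32 ± 0.206 for Mog (limma adjusted p = 0.580), and without the sex term it was -0.08 for Mbp and -0.16 for Mog. Without cKO replicate 4 it was 0.08 for Mbp and 0.17 for Mog, and without WT replicate 1 0.09 for Mbp and 0.18 for Mog.

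Within a sex the comparison rests on a single animal. The cKO female lay above all 4 WT females in 14 of 32 members, within their range in 17 and below it in 1. The WT male lay below all 3 cKO males in 11 members, within their range in 18 and above it in 3. A term for the interaction of sex and genotype passed in 0 members (0.00587% of all genes), and 2, Pllp and Gpr37, had an unadjusted p under 0.05 in limma (7.90% of all genes).

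The sexes were compared in the same model. Males had lower estimates in 31 of 32 members (49.8% of all genes were lower), and the median log2 fold change of male against female was -0.29, against 0.0003 over all genes. No member passed at an adjusted p under 0.05 (9 genes or 0.0528% of all genes did, Xist and Y-linked genes among them), but 19 had an unadjusted p under 0.05 in limma, all lower in males, where 6.73% of all genes had one in either direction and 3.19% a lower value. Because the members vary together, their count is not that of independent genes. The libraries of the sexes were apart in 2 members, against 3.11% of all genes. These were Cryab, at 387 to 400 normalized counts in males and 422 to 473 in females, and Enpp6, at 645 to 818 in males and 821 to 854 in females.

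Estimates were lowest for genes of the sheath. Opalin averaged 15.1 ± 12.6 normalized counts in males (SD, n = 4) and 28.6 ± 6.22 in females (SD, n = 5), with a log2 fold change of -1.25 ± 0.437 (SE, limma adjusted p = 0.694). Mog averaged 112 ± 45.3 in males and 174 ± 14.2 in females, with -0.88 ± 0.206 (limma adjusted p = 0.384). For Mobp the averages were 1365 ± 536 in males and 1997 ± 181 in females, with -0.79 ± 0.186 (limma adjusted p = 0.384). The SD in males exceeded that in females in all 3, since cKO replicate 4 was high. The log2 fold change was -0.63 ± 0.131 for Mag, -0.56 ± 0.45 for Nkx6-2, -0.55 ± 0.192 for Mal, -0.53 ± 0.101 for Cldn11, -0.43 ± 0.134 for Fa2h, -0.42 ± 0.101 for Mbp, -0.40 ± 0.237 for Ermn, -0.33 ± 0.0992 for Ugt8a, -0.30 ± 0.069 for Cnp, -0.28 ± 0.119 for Gjc3 and -0.24 ± 0.105 for Gal3st1. It was -0.27 ± 0.0781 for Enpp6, -0.18 ± 0.0744 for Myrf, -0.14 ± 0.0633 for Bcas1 and -0.13 ± 0.0691 for Tspan2, the early members, and -0.18 ± 0.104 for Trf, -0.13 ± 0.0445 for Sirt2 and -0.04 ± 0.25 for Aspa. Gjb1, at 0.33 ± 0.333, was the exception in direction.

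The count for sex depended on cKO replicate 4. Without cKO replicate 4, 6 members passed as lower in males (0.0939% of all genes passed), namely Mobp, Mag, Cldn11, Mbp, Mog and Cnp, at log2 fold changes of -0.94, -0.73, -0.61, -0.50, -1.03 and -0.34. The males left in that fit are the 3 low libraries, which were picked out by the members' own mean. The 6 members thus describe that split and are not a test of sex. With all libraries DESeq2 on the recovered reads passed 2 members, Cldn11 and Cnp (0.141% of all genes), and edgeR 0. In the fits that left out any other library no member passed. Only 1 WT animal is male and only 1 cKO animal female, and litter is not labelled, so a difference between litters or in dissection cannot be told apart from one between the sexes.

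**Figure D4:**
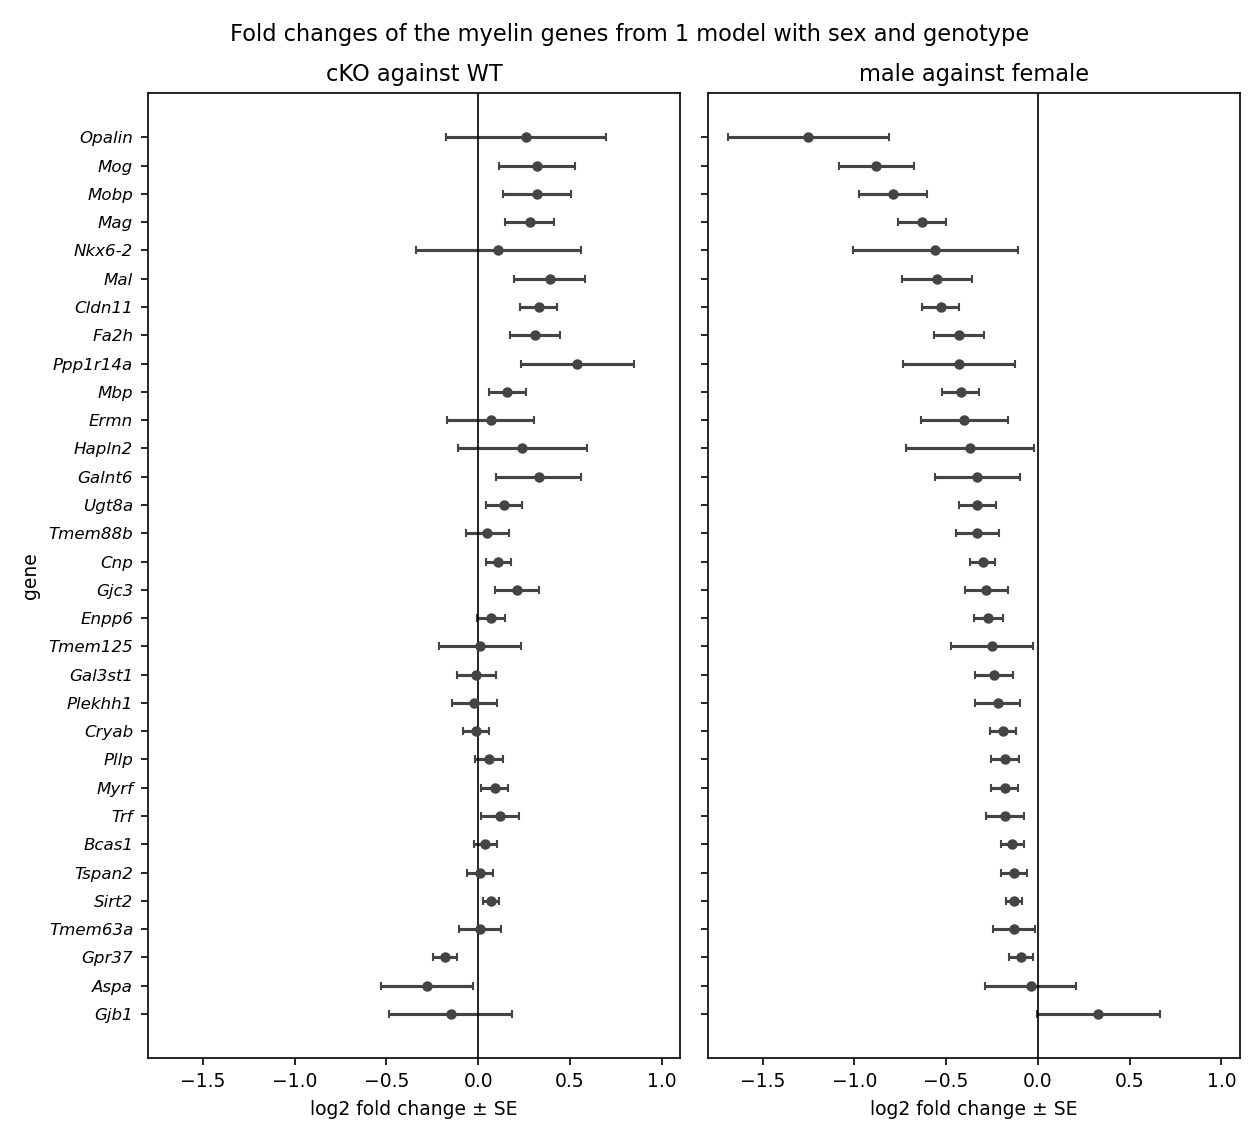
Log2 fold change ± SE of each of the 32 genes for cKO against WT (left) and male against female (right), from 1 limma model over 9 libraries. On the left the estimates run from -0.28 to 0.54, and on the right all but Gjb1 lie below 0, with Opalin at -1.25 and the early genes between -0.27 and -0.13.

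Other genes of the lineage were compared with the members to place the libraries. Of 20 genes of newly formed oligodendrocytes, 0 passed in either direction for cKO against WT (0.346% of all genes) or for the sexes (0.0528%). Their mean log2 value was 9.79, 9.82, 9.70 and 9.91 in cKO replicates 1 to 4, and 9.78, 9.87, 9.86, 9.90 and 9.91 in WT replicates 1 to 5. The 3 libraries low in myelin were also the lowest here, by far less. Of 18 precursor genes 0 passed in either comparison, and their mean was 10.45, 10.44, 10.39 and 10.42 in cKO and 10.55, 10.50, 10.53, 10.47 and 10.54 in WT. Precursor genes thus did not follow the 3 libraries, WT replicate 1 being the highest and cKO replicate 3 the lowest. Their mean was lower in every cKO library (10.39 to 10.45) than in every WT library (10.47 to 10.55), and no test was made of it. Of the 18 genes, 17 had a genotype estimate below 0 (51.2% of all genes). Gpr17, a receptor of committed precursors that is in both lists, was at 5731, 5590, 5961 and 6266 normalized counts in cKO and at 6361, 6668, 6784, 6682 and 7136 in WT, with no overlap (log2 fold change -0.19, limma adjusted p = 0.170). The platelet-derived growth factor receptor gene Pdgfra averaged 4656 ± 210 in cKO and 5083 ± 168 in WT (-0.17, limma adjusted p = 0.161), and the fatty acid elongase gene Elovl6 3961 ± 180 in cKO and 4599 ± 202 in WT (-0.18, limma adjusted p = 0.168). Without the sex term Gpr17 and Elovl6 were lower in cKO and passed (1.27% of all genes, limma adjusted p = 0.0384 and 0.0237).

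A further list of 49 genes of myelin and oligodendrocytes, 48 of them tested, gave 0 that passed for genotype and 0 for sex. Its median log2 fold change was -0.11 for male against female, with 38 of 48 below 0 (49.8% of all genes) and 10 at an unadjusted limma p under 0.05, all lower in males (3.19% of all genes). The list's mean log2 value was 9.15, 9.21, 9.04 and 9.26 in cKO replicates 1 to 4. In WT replicates 1 to 5 it was 9.07, 9.31, 9.24, 9.25 and 9.19. The 3 libraries low in myelin were the lowest here too, with cKO replicate 1 close to WT replicate 5. The smallest genotype p was that of Apod, a lipid carrier that meningeal and vessel cells also make, at 718, 697, 647 and 540 normalized counts in cKO and 354, 422, 631, 460 and 467 in WT (log2 fold change 0.67, limma adjusted p = 0.0655). Car2, the carbonic anhydrase gene, was at 1553, 1698, 1635 and 1755 in cKO and 1933, 2162, 2017, 2077 and 1957 in WT, with no overlap (-0.25, limma adjusted p = 0.0759, and 0.00798 without the sex term). Unc5b averaged 526 ± 36.0 in cKO and 593 ± 19.0 in WT (-0.22, limma adjusted p = 0.240), and Pex5l 4427 ± 168 in cKO and 4944 ± 142 in WT (-0.14, limma adjusted p = 0.244, and 0.0483 without the sex term). Gsn, an actin-severing protein enriched in oligodendrocytes, was chosen after its values were seen, as the smallest sex p of the list, at a log2 fold change of -0.37 (limma adjusted p = 0.678). Of 13 tested enzymes and carriers of sphingolipids 0 passed in either comparison. Cers6 had the smallest genotype p (-0.13, limma adjusted p = 0.522), and the median for male against female was -0.04.

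Markers of other cells were set beside the pattern. Schwann cells also make myelin, but Pmp2, a myelin protein gene of those cells, and Foxd3, a factor of their precursors, were at 0 normalized counts in all 9 libraries. Of the 4 Schwann cell genes that were tested, 0 passed for genotype or sex. Choroid plexus genes summed to 24226, 3659, 818 and 34627 normalized counts in cKO replicates 1 to 4, and to 831, 45760, 10666, 26572 and 3152 in WT replicates 1 to 5, with 12 of 12 tested. cKO replicate 3 and WT replicate 1 were thus lowest for choroid plexus as for myelin, while cKO replicate 1, low in myelin, was high, and cKO replicate 2 and WT replicate 5, high in myelin, were low. In males against females 12 of 12 choroid plexus genes had estimates below 0 (49.8% of all genes), at a median log2 fold change of -1.02, and 0 passed for sex or genotype. The sums overlapped between the sexes, at 818 to 34627 in males and 3152 to 45760 in females. The lowest of these estimates, that of Ttr, was -2.41 ± 1.67 (SE). Meningeal fibroblast genes, 12 of 12 tested, summed to 11056, 9108, 8843 and 9811 in cKO and to 6283, 7999, 10591, 7384 and 7721 in WT, with WT replicate 1 lowest and cKO replicate 1 highest. Their median log2 fold change for cKO against WT was 0.33, and 0 passed for genotype or sex. Astrocyte genes summed to 152079 to 161438 in cKO and 151114 to 166767 in WT. Slc1a2 alone averaged 88103 normalized counts over all libraries and is the largest part of those sums. Of 8 tested, Gfap and S100b rose and Aqp4 fell in cKO (log2 fold changes 0.29, 0.35 and -0.35, limma adjusted p = 0.0420, 0.0141 and 0.00206), where 0.346% of all genes passed. Without the sex term Aqp4 alone of these passed (limma adjusted p = 1.93e-04, against 0.117 for Gfap and 0.142 for S100b). The libraries of the genotypes overlapped in Gfap and S100b and not in Aqp4. In males against females 8 of 8 astrocyte genes had estimates below 0 (49.8% of all genes), and 0 passed. The mean log2 value of the astrocyte genes was 13.08 to 13.12 in males and 13.15 to 13.25 in females, with no overlap. The part of the choroid plexus, meningeal and astrocyte values in the myelin pattern was not tested. In whole tissue, fewer oligodendrocytes and less myelin RNA per cell cannot be told apart.

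**Figure D5:**
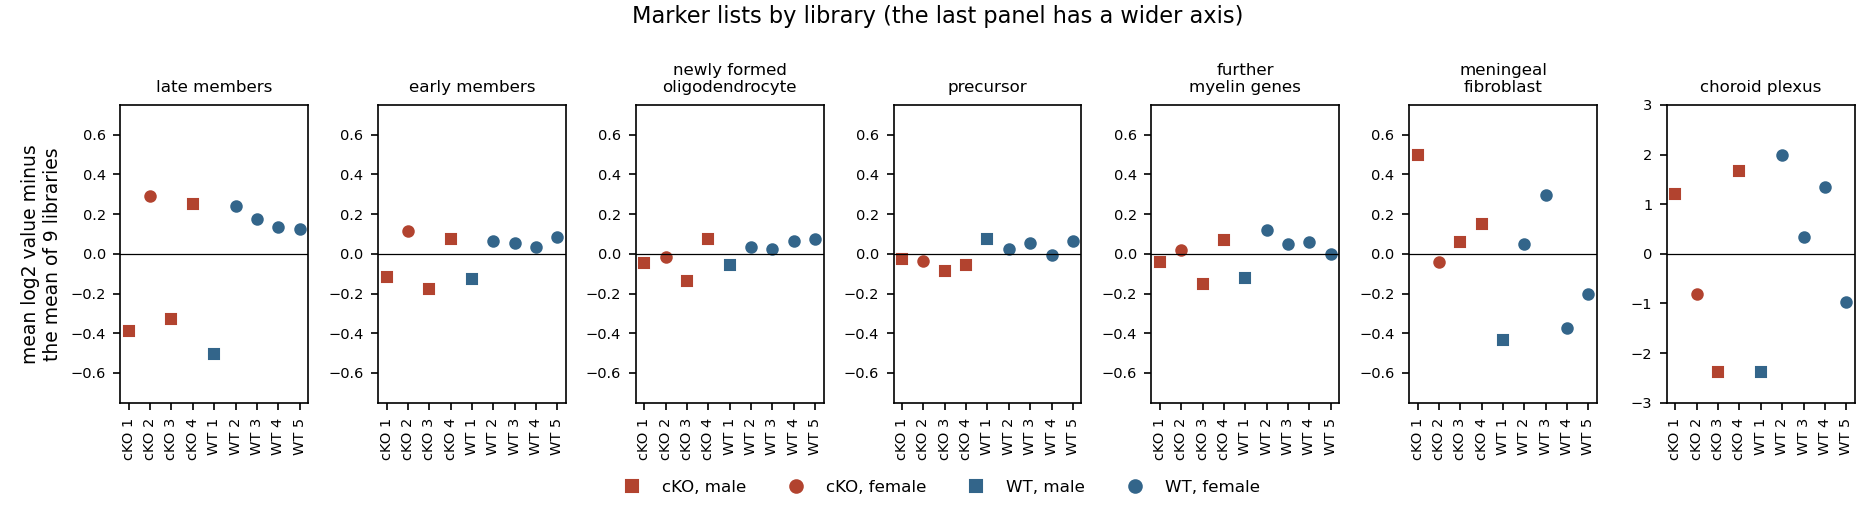
Mean log2 value of 7 gene lists in each library minus the mean of the 9 libraries (colour genotype, shape sex). The 3 low libraries stand lowest for late and early myelin genes and by less for newly formed oligodendrocyte genes. The late and early genes are members, by whose mean the 3 libraries were picked. For further myelin genes the 3 libraries are lowest too, whereas precursor, meningeal and choroid plexus genes order the libraries in other ways.

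Outside the members, the genes whose log2 values were most like the members' mean over the 9 libraries, among 13889 with a mean of at least 50, included Mak16 (Pearson r 0.959), Hebp2 (0.957), Ddn (0.941), Acsl3 (0.925), Gsn (0.916), Hspa1b (0.914) and Ahcyl2 (0.910). These values describe 9 libraries that fall into separate states, and carry no test.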

How the data were processed

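Per the labels' protocols, total RNA of 9 whole hippocampi was made into directional libraries in 1 round. The submitters' processing notes name STAR 2.7.10b, cutadapt 4.4, FastQC 0.12.1, DESeq2 1.41.8 and GRCm39. No source used here gives the counter, annotation or strand setting, so antisense and overlapping genes may share reads. The deposited signal values behave as gene counts scaled by a size factor for each library, with 2 decimals. Whole reads were recovered from each library's step (0.9429 to 1.0753) for 100.0% of values above 0, within 0.1 read. The step of 3 libraries (cKO replicate 1, WT replicates 1 and 4) is near 1 and shows only at high values.

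Groups and sex came from the labels, and replicate numbers follow record order. Genes were tested with limma-trend (limma 3.58.1, R 4.3.3) of log2(normalized count + 1) on sex plus genotype, for 17036 genes whose mean was at least 10. Fold changes are on that scale, which understates low genes, and with sex in the model their sign can differ from that of the group means. Alternatives were pseudocounts of 0.5 and 5, minimum means of 1 and 50 or none, TMM scaling, a model without sex, males or females only, leaving out each library, and count tests of the recovered reads (DESeq2 1.42.0, edgeR 4.0.16). The fit was tested on simulated data. P-values measure only the spread between these samples, whose litters are not labelled. The members and lists were chosen with earlier results of these data known. Values per library are given for a set list of structural, lipid, regulatory and early members and for the 3 highest and 3 lowest genotype estimates, and of other lists up to 4 genes of smallest genotype p are named. The 8 genes most like the members' mean were taken by Pearson r, and 1 of them is not reported here. Promoter windows are RefSeq's (GRCm38.p6). Python 3.11.15, pandas 2.3.3, numpy 2.4.6 and matplotlib 3.10.9 were used.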

Additional observations from a re-analysis of the deposited data

Results flagged for a closer look

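Within the WT group, WT replicate 1 stood apart from the other 4 libraries by Dixon's criterion in several genes. It held 82.8 normalized counts of Mog (the others 155 to 182), 804 of Mag (1201 to 1323), 3501 of Cnp (4228 to 4261), 657 of Cldn11 (979 to 1003), 164 of Fa2h (224 to 248) and 651 of Enpp6 (821 to 854). The mean log2 value of the 32 genes was 7.95 in that library (8.29 to 8.35 in the others), and early minus late members was 4.21 (3.65 to 3.80). It is also the single WT male. In the cKO group Pllp was at 955 normalized counts in replicate 2, the single cKO female, and at 717 to 750 in the others. In all, 9 of 68 sets of values stood out, where chance gives about 1 in 20, and the genes vary together.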

How the results depend on the processing

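The count of members passing for cKO against WT was 0 in every alternative run, and their median log2 fold change lay between 0.06 and 0.13 when 1 library was left out, at 0.09 in females and 0.09 in males alone, and at -0.06 without the sex term. For male against female the count ranged from 0 to 6 when 1 library was left out, 6 without cKO replicate 4, and was 2 with DESeq2, and the median from -0.32 to -0.24. The males of the fit without cKO replicate 4 are the 3 low libraries, so its count of 6 is a description and not a test. Early minus late members, 0.02 for cKO minus WT, was -0.19 with sex as a term, -0.30 in males only, -0.08 in females only and -0.06 to 0.12 with 1 library left out. Many members changed sign, and only some are named here. With the sex term 26 of 32 members had a log2 fold change above 0 for cKO against WT (48.8% of all genes). Without it 9 did (49.4% of all genes). Without the sex term the log2 fold change for cKO against WT was -0.08 for Mbp, -0.16 for Mog and 0.03 for Gjb1. It was -0.11 for Mobp, -0.07 for Mag and -0.43 for Opalin, all above 0 with the term. In males only it was 0.07 for Aspa and 0.14 for Gjb1. Leaving out 1 library gave -0.62 to 0.07 for Aspa, -0.43 to 0.14 for Gjb1 and, for male against female, -0.38 to 0.31 for Aspa. The cause was not tested. Over all genes, 59 passed for genotype, against 216 without the sex term, 200 with DESeq2, 11 in females only, 3 in males only and 10 to 65 with 1 library left out. Members under about 50 normalized counts carry the larger counting error. No paired analysis was possible because replicate numbers follow record order and pair no animals.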
